A study of Danio rerio with 15 samples.

Results

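Wildtype zebrafish neutrophils were compared between 2 ages, 2 days post fertilization (dpf) and 1.5 dpf, which the sample names write as 35 hours post fertilization. The comparison rests on 6 of the series' 15 RNA-seq libraries, 3 from each age, and covers every gene of the table. The 6 libraries were taken by the genotype and age in their labels, and no measured value entered the choice. At both ages neutrophils were sorted from embryos on mpx:GFP, a green fluorescent protein reporter read from the promoter of the myeloperoxidase gene mpx. The gate therefore follows the fluorescence of 1 transgene, and other cells that fluoresce or pass the sorter would enter the libraries. The other 9 libraries came from embryos at 2 dpf with the same reporter, 3 each labelled tet2-/-, tet3-/- and tet2/3DM (mutants of tet2, tet3 and both). They were used here for the estimate of the spread between replicates, and their values stand beside those of the wildtype libraries where both sides are given. The labels state neither the alleles nor how many embryos were pooled for a library. They also do not say whether replicates came from separate clutches or sorts. A p-value here sets a difference against a spread between replicates, pooled over all 5 groups, that may be no more than technical.

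Neutrophils are short-lived phagocytes that carry granules of antimicrobial proteins and proteases and make reactive oxygen with the NADPH oxidase. In zebrafish embryos the first myeloid cells arise from mesoderm of the anterior embryo, primitive red cells arise in the intermediate cell mass, and definitive blood stem cells emerge later from the wall of the dorsal aorta. As neutrophils mature they leave the cell cycle and fill their granules, while blood progenitors keep dividing.

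Each value is a normalised count, the reads of a gene divided by the authors' size factor for the library. The 6 wildtype libraries held between 12.18 M and 15.05 M reads (M, 1e6), within a range of 5.64 M to 31.06 M over the series. Pairwise correlations of log2 values within a group, given as a description across genes, ran between 0.957 and 0.968 at 2 dpf and between 0.931 and 0.947 at 1.5 dpf. The replicates of 2 dpf thus lay closer to each other than those of 1.5 dpf. In the mutants the correlations ran between 0.885 and 0.941 in tet2-/-, 0.941 and 0.942 in tet3-/-, and 0.881 and 0.9435 in tet2/3DM libraries. The pooled spread therefore includes groups that vary more than the wildtype ones. With the 6 wildtype libraries alone the median standard error was 0.87 times as large. Replicate 3 of 1.5 dpf stood apart in neutrophil genes: its normalised counts summed over 19 granule genes came to 197263, against 368801 and 539407 in replicates 1 and 2 of the same age. The same library had the highest sum over 28 neural markers, 27727 against 12852 and 11203. List counts that move by more than 1.5 times without it are given both ways below.

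Fold changes are log2 differences, 2 dpf minus 1.5 dpf, of the value plus 1, so those of weakly expressed genes are understated. Between the ages 3317 of 15933 genes tested (20.8%) passed an adjusted p of 0.05 in limma. At 2 dpf 1855 genes rose (11.6%) and 1462 fell (9.18%), while the median change over all genes was 0.01. The rises were larger than the falls: their median size was 1.71, against 0.94 for the falls, and 757 rises but 185 falls exceeded 2. In 6901 genes (43.3%) the 3 values of 2 dpf all lay above or all below the 3 values of 1.5 dpf, 3570 of them above (22.4%) and 3331 below (20.9%). Leaving out 1 library at a time gave between 1845 and 3316 genes. The count was more than 1.5 times lower without replicate 2 of 2 dpf (1930), replicate 3 of 2 dpf (1845) or replicate 1 of 1.5 dpf (1949).

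**Figure D1:**
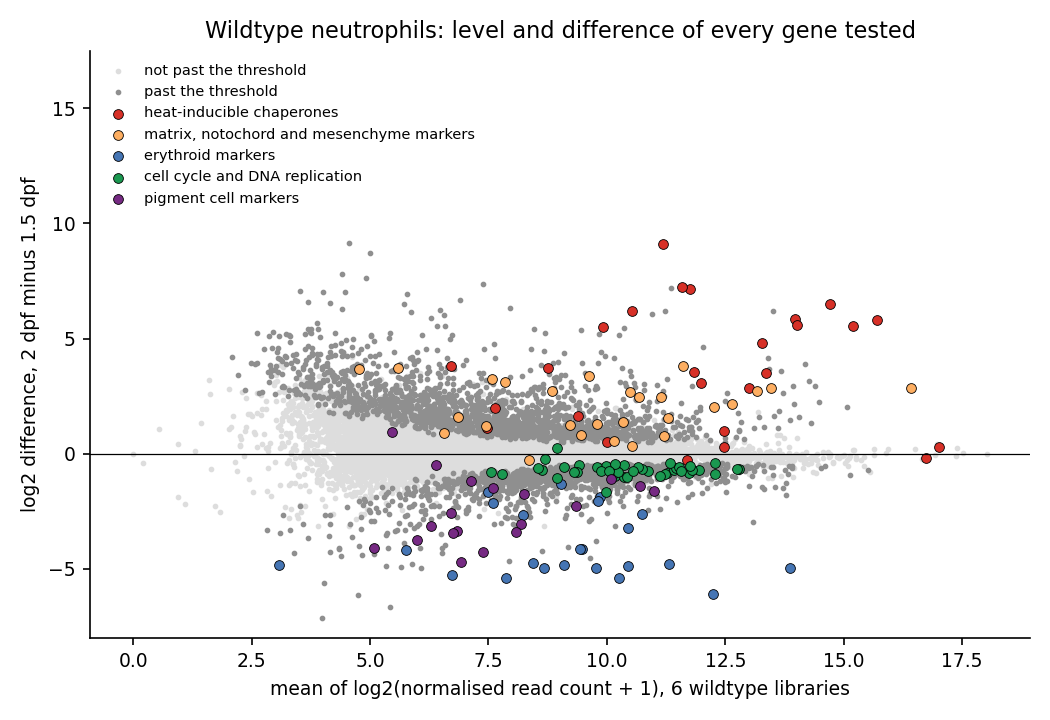
Log2 change per gene (2 dpf minus 1.5 dpf, vertical axis) against its mean log2 level over the 6 wildtype libraries (horizontal axis), with each tested gene as a point, passing genes in dark grey and 5 gene lists in colour. The 1855 genes that rose reach further from 0 than the 1462 that fell; heat-inducible chaperones lie mostly at the upper right and erythroid markers at the bottom.

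The genes with the largest changes were of a few kinds. Of the 15 largest rises that the naming rule picked, 6 encode heat shock proteins or their partners: hsph1, bag3, DNAJA4, hspb1, hsp90aa1.2 and hspbp1. Of the 15 largest falls, 13 are hemoglobin or other red cell genes. The largest fall by that rule was that of tbx6l, a T-box transcription factor gene of the early mesoderm, with normalised counts of 0, 5.63 and 10.7 at 2 dpf, against 444, 394 and 442 at 1.5 dpf (log2 change -6.65, SE 0.83, limma adjusted p = 8.1e-05). Among the rises outside the chaperones was hpdb, a gene of tyrosine breakdown, with 787, 459 and 610.2 at 2 dpf and 15.5, 6.51 and 7.57 at 1.5 dpf (log2 change 5.89, SE 0.65, limma adjusted p = 4.1e-05). Several other strong rises started from almost no reads. matn3a, which encodes a cartilage matrix protein, had 581, 259 and 205 at 2 dpf and 0, 0 and 1.89 at 1.5 dpf. pglyrp6, of the peptidoglycan recognition proteins that bind bacterial walls, had 461, 965 and 646 at 2 dpf and 0, 0 and 2.84 at 1.5 dpf. chs1, a chitin synthase gene, was at 0 in all 3 libraries of 1.5 dpf and had 86.2, 152 and 176 at 2 dpf, which is at least 39.0-fold higher with a floor of 3 reads per library.

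Heat shock protein genes were among those that differed most between the ages. Heat shock proteins are chaperones that keep unfolded proteins from clumping; the inducible ones are switched on by the factor Hsf1 under heat or other protein stress. The list of heat-inducible genes held 26 tested members, some of which, such as hspa8 and hsp90ab1, are also made without stress. At 2 dpf 21 rose, beside 11.6% of all genes, and none fell. The median log2 change was 3.64, beside 0.01 over all genes. hsph1, an Hsp110 exchange factor, had normalised counts of 48195, 59822 and 55583 at 2 dpf and 109, 70.301 and 122 at 1.5 dpf, a log2 change of 9.10 (SE 1.2, limma adjusted p = 0.00045). hsp70l, the inducible Hsp70, had 367872, 426506 and 396088 at 2 dpf and 7289.7, 10181 and 4965 at 1.5 dpf (log2 change 5.79, SE 0.86, limma adjusted p = 0.00086). hsp90aa1.2, an inducible Hsp90, had 244817, 271023 and 255706 at 2 dpf and 3519, 4572 and 1393 at 1.5 dpf (log2 change 6.51, SE 0.64, limma adjusted p = 3.8e-05). In each of these 3 genes the ages were far apart and did not overlap. Reads of near-identical copies, such as hsp70l and hsp70.3 or the 2 hsp90aa1 genes, may have been divided between them by the counting, which makes their single values uncertain. The co-chaperone gene bag3 had 37088, 39279.9 and 37483 at 2 dpf and 288, 207 and 258 at 1.5 dpf. serpinh1b, which encodes the collagen chaperone Hsp47, rose less, with 36655, 33761 and 35753 at 2 dpf and 4075, 3409.6 and 2119.8 at 1.5 dpf (log2 change 3.52, SE 0.28, limma adjusted p = 1.98e-06). The chaperone genes hspa8 and hsp90ab1 did not pass the test. hspa8 had 160169, 142403 and 132818 at 2 dpf and 118289, 134226 and 106903 at 1.5 dpf, with a log2 change of 0.28 (limma adjusted p = 0.21). The constitutive Hsp90 gene hsp90ab1 had a log2 change of -0.19 (limma adjusted p = 0.37).

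The 26 genes of the list together took 9.62%, 10.60% and 10.18% of all normalised counts at 2 dpf, against 1.78%, 1.90% and 1.77% at 1.5 dpf. The difference of the means was 8.31 percentage points (10.13% ± 0.49 at 2 dpf and 1.82% ± 0.08 at 1.5 dpf, SD, n = 3 each), with an exact permutation p of 0.1, two-sided, the smallest that 3 against 3 libraries allow. The hsp70l and hsp70.3 genes alone took 3.52%, 4.14% and 3.96% at 2 dpf, against 0.0888%, 0.107% and 0.0570% at 1.5 dpf. Among the mutants of 2 dpf the share was 9.02%, 8.18% and 12.16% in tet2-/-, 2.35%, 2.34% and 2.53% in tet3-/-, and 2.14%, 6.51% and 3.31% in tet2/3DM libraries. The share at 2 dpf therefore ran from 2.14% to 12.16% between libraries of the same age. In this 26-gene share the wildtype libraries of 2 dpf lay near the upper end and those of 1.5 dpf below every library of 2 dpf. The share of hsp70l and hsp70.3 alone did not separate all libraries in that way. It was 0.0789% in replicate 1 of tet2/3DM, within the range of 1.5 dpf. In the other mutant libraries it ran from 0.279% to 4.88%, above that range. With hsp70l added as a covariate over the 15 libraries, 41 genes passed the threshold in place of 3317, 33 of them among the 3317 and with the same sign. In that fit the median standard error of the age difference was 2.12 times as large; hsp70l and the age groups move together. The part of the heat shock transcripts in the other differences was not tested, and age cannot be told apart from them within the wildtype libraries.

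**Figure D2:**
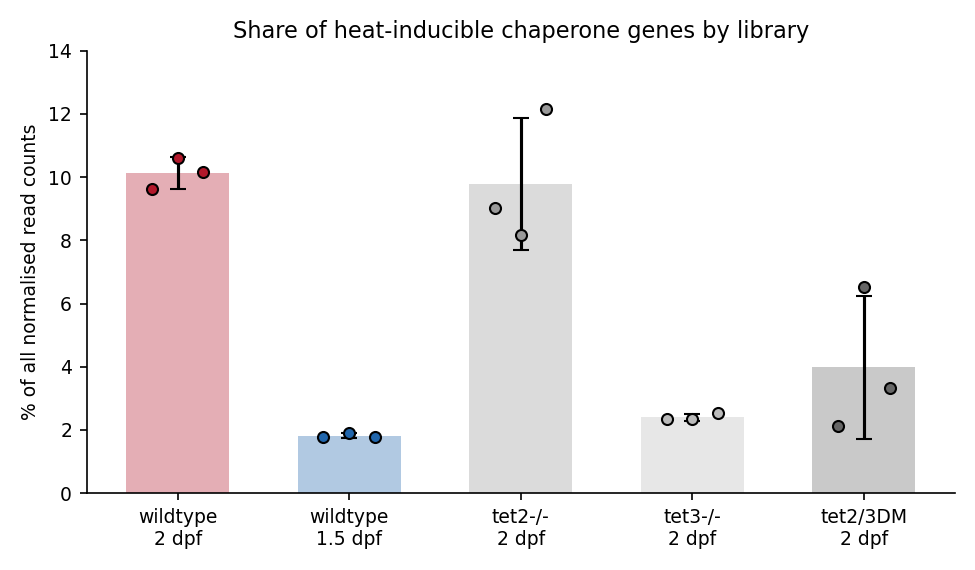
Share of all normalised counts taken by the 26 heat-inducible chaperone genes (percent, vertical axis) in each of the 15 libraries, with a point per library, a bar at the mean of each group and an error bar of 1 SD. The 3 wildtype libraries of 2 dpf sit between 9.62% and 10.60% and those of 1.5 dpf between 1.77% and 1.90%, while tet3-/- libraries of 2 dpf lie between 2.34% and 2.53%.

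Immediate early genes, which encode transcription factors made within minutes of a stimulus, rose more often than they fell. Of 33 tested, 14 rose and 3 fell at 2 dpf, beside 11.6% and 9.18% of all genes. jun, a subunit of the AP-1 factor, had 31706, 29925 and 27146 at 2 dpf and 11035, 8756 and 10179 at 1.5 dpf (log2 change 1.57, SE 0.16, limma adjusted p = 2.3e-05). Its partner fosab had 24431, 24728 and 22909 at 2 dpf and 5621, 5305 and 9778 at 1.5 dpf (log2 change 1.86, SE 0.22, limma adjusted p = 6.3e-05). The 2 ages did not overlap in either gene, and the zinc finger gene egr4 rose by a log2 change of 2.56. The stress response factor gene atf3 rose by 1.45 on the same scale. maff, a small Maf factor without an activation domain, went the other way, with 687, 789.9 and 778 at 2 dpf and 2131, 2566 and 1440.0 at 1.5 dpf (log2 change -1.41). jun averaged 22548 in tet2-/-, 11139 in tet3-/- and 11763 in tet2/3DM libraries of 2 dpf, each below the wildtype libraries of 2 dpf, which averaged 29592.

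Among 25 tested genes of the p53 response and apoptosis, 11 rose and 3 fell, beside 11.6% and 9.18% of all genes. Without replicate 2 or replicate 3 of 2 dpf the count was more than 1.5 times lower, and leaving out 1 library at a time gave 5 to 9 rises and 1 to 3 falls. mcl1a, an anti-apoptotic Bcl-2 relative on which neutrophils of mammals depend for survival, had 60961, 58010.0 and 56071 at 2 dpf and 7078, 9603 and 4212 at 1.5 dpf (log2 change 3.15, SE 0.30, limma adjusted p = 1.2e-05). In tet3-/- libraries of 2 dpf mcl1a averaged 7041, within the range of the wildtype libraries of 1.5 dpf. Another survival gene, bcl2a, rose by a log2 change of 1.67 (limma adjusted p = 0.0012). The cyclin G gene ccng1, a p53 target, rose by 1.59 (limma adjusted p = 0.00098). bbc3, which encodes the pro-apoptotic protein Puma, fell to 41, 69.9 and 52.2 at 2 dpf, against 216, 314 and 169 at 1.5 dpf (log2 change -2.07, limma adjusted p = 0.0051). Among the genes named here, inhibitors of apoptosis thus rose and a promoter of it fell. The other genes of the list past the threshold were not sorted by role, so no direction of the whole list follows.

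Among neutrophil granule and receptor genes the share past the threshold was near that of all genes (20.8%). Of 19 genes on the granule list 1 rose and 2 fell, with a median log2 change of -0.56. The change was negative in 15 of the 19 genes and positive in 4, most of them not past the threshold. mpx, whose promoter drives the sorting reporter, had 37006, 38570.0 and 33867 at 2 dpf and 50671, 89852 and 32686 at 1.5 dpf (log2 change -0.54, SE 0.35, limma adjusted p = 0.30). lyz, the lysozyme gene, had 141152, 119155 and 105758 at 2 dpf and 154271, 198732 and 68382 at 1.5 dpf (log2 change -0.08, limma adjusted p = 0.90). In both genes the libraries of 2 dpf lay within the range of those of 1.5 dpf, and replicate 3 was the lowest of the 3 at 1.5 dpf. The neutrophil collagenase gene mmp13a fell to 5331, 5200.3 and 4657 at 2 dpf, against 12915, 21844 and 8567 at 1.5 dpf (log2 change -1.41, limma adjusted p = 0.0089). The 1 gene of the list that rose was cfl1l, a cofilin-like gene rather than one for a granule product. It had 2467, 1946 and 2119 at 2 dpf and 808, 1575 and 507 at 1.5 dpf (log2 change 1.33, limma adjusted p = 0.0080). Summed over the 19 genes the normalised counts were 288913, 256948 and 227254 at 2 dpf, against 368801, 539407 and 197263 at 1.5 dpf. Replicate 3 of 1.5 dpf lay below all libraries of 2 dpf and the other 2 above them. Without replicate 3 of 1.5 dpf 9 of the 19 genes on the list fell and 1 rose.

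Receptors and migration genes gave a similar picture. Of 28 tested, none rose and 4 fell. The median log2 change was -0.44, with 24 changes negative and 4 positive. In 10 of the 28 genes all libraries of 2 dpf lay below all of 1.5 dpf, and in 1 above. Among all genes these shares were 20.9% and 22.4%. tlr5b, a receptor for bacterial flagellin, fell to 291, 240.0 and 186 at 2 dpf, against 1084, 1702 and 527 at 1.5 dpf (log2 change -2.07, limma adjusted p = 0.0056). csf3r, the receptor for granulocyte colony-stimulating factor, had 2121, 2277 and 2831 at 2 dpf and 3245, 4266 and 3495 at 1.5 dpf (log2 change -0.61, SE 0.21, limma adjusted p = 0.048). Its 2 ages did not overlap, but the adjusted p was between 0.055 and 0.16 when any 1 of the 6 libraries was left out. Between 1 and 9 of the 28 genes fell when 1 library was left out, the 9 without replicate 3 of 1.5 dpf, and fewer than 4 without each of the others. Of 7 subunits of the NADPH oxidase, which makes superoxide against microbes, none passed in limma, with a median log2 change of -0.42; 3 were lower at an unadjusted p under 0.05, edgeR called 1 of them lower and DESeq2 3. Their summed normalised counts were 27246, 26198 and 24250 at 2 dpf and 46895, 57680 and 26234 at 1.5 dpf. Without replicate 3 of 1.5 dpf 3 of the 7 fell.

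Several transcription factors of early blood fell at the later age. Of 22 myeloid and blood transcription factor genes none rose, 8 fell and 14 did not pass. Among all genes 11.6% rose and 9.18% fell. gfi1b, a repressor needed for red cell and platelet lineages, had 80.6, 72.1 and 119 at 2 dpf and 843, 655 and 741 at 1.5 dpf (log2 change -3.06). klf1, an activator of globin genes, had 15.6, 18 and 43.9 at 2 dpf and 394, 349 and 389 at 1.5 dpf (log2 change -3.97, limma adjusted p = 2.9e-05). The CCAAT-binding factor gene cebpg fell to 653, 698 and 669.5 at 2 dpf, against 1835, 1393 and 1369 at 1.5 dpf (log2 change -1.17). cebpd, of the same family, fell to 549.9, 353 and 533 at 2 dpf, against 1893, 1208 and 1069 at 1.5 dpf (log2 change -1.52). Of 21 blood progenitor genes 1 rose, 8 fell and 12 did not pass, and with 1 library left out 5 to 8 fell. gata1a, the master regulator of red cells, fell to 119, 180.3 and 76 at 2 dpf, against 702, 773 and 813 at 1.5 dpf (log2 change -2.68). lmo2, an adaptor of blood and vessel transcription complexes, had 211, 299 and 175 at 2 dpf and 693, 473 and 640.0 at 1.5 dpf (log2 change -1.41). Several of these genes belong to red cells or vessels as much as to neutrophils, and markers of both cell types moved with them, as described below. In bulk libraries of sorted cells, fewer cells of a type and less RNA per cell cannot be told apart.

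Inflammatory genes moved in both directions. Of 30 tested, 4 rose and 8 fell, beside 11.6% and 9.18% of all genes. Their median log2 change was -0.99. Without replicate 3 of 1.5 dpf 3 rose and 12 fell. csf3a, which encodes granulocyte colony-stimulating factor, had 141, 131 and 154 at 2 dpf and 3624, 3909.5 and 945 at 1.5 dpf (log2 change -4.06, limma adjusted p = 0.00096). The cytokine gene il6 had 237, 299 and 176 at 2 dpf and 5002, 4726 and 1446 at 1.5 dpf (log2 change -3.80, limma adjusted p = 0.0042). Both genes were lowest among the 1.5 dpf libraries in replicate 3, which still lay above all of 2 dpf. socs3b, a feedback inhibitor of cytokine receptors, fell to 679, 463 and 543 at 2 dpf, against 2546, 1492 and 2115 at 1.5 dpf (log2 change -1.85). In mutants of 2 dpf socs3b averaged 2456 in tet3-/- and 3142 in tet2/3DM libraries, at the level of the wildtype libraries of 1.5 dpf or above it. ptgs2b, an inducible cyclooxygenase of prostaglandin synthesis, rose instead, with 309.6, 297 and 356 at 2 dpf and 51.7, 124 and 58.7 at 1.5 dpf (log2 change 2.13).

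Of 13 interferon-responsive genes 3 rose and none fell, a share near the 20.8% of all genes past the threshold. In 1 of the 3 the call was lost when any 1 of 5 wildtype libraries was left out, all but replicate 1 of 1.5 dpf. isg15, an interferon-induced protein modifier, had 650.3, 563 and 543 at 2 dpf and 11.6, 9.11 and 14.2 at 1.5 dpf (log2 change 5.55, limma adjusted p = 0.00030). It averaged 164 in tet2-/-, 3.38 in tet3-/- and 37.5 in tet2/3DM libraries of 2 dpf, so that the wildtype mean of 2 dpf was the highest of the 5 groups. b2m, the light chain of class I antigen-presenting molecules, had 154, 78.9 and 188 at 2 dpf and 28.5, 15.6 and 31.2 at 1.5 dpf (log2 change 2.4).

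Cell cycle genes fell together by modest amounts. Of 45 genes of replication and mitosis tested, 33 fell and none rose, beside 9.18% and 11.6% of all genes. Their median log2 change was -0.73. plk1, a mitotic kinase, had 1667, 1864 and 1807 at 2 dpf and 3247, 3247 and 3255 at 1.5 dpf (log2 change -0.87, SE 0.14, limma adjusted p = 0.00051). kif23, a motor of cell division, had 898, 1048 and 969.9 at 2 dpf and 1902, 1978 and 1971 at 1.5 dpf (log2 change -1.01). The replicates of each age were close to each other in both genes. Replication genes fell by like amounts: the primase gene prim1 had 329, 366 and 319 at 2 dpf and 671, 707 and 757 at 1.5 dpf, and the polymerase gene pold1 901, 913 and 975 at 2 dpf and 1795, 1730.2 and 2149 at 1.5 dpf. Normalised counts summed over the list were between 69818 and 70670 at 2 dpf and between 105943 and 133331 at 1.5 dpf. With 1 library left out 17 to 26 genes fell, and the count was more than 1.5 times lower without each of the 3 libraries of 2 dpf. In the mutant libraries of 2 dpf the sums were between 67024 and 84742, all below those of 1.5 dpf.

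Enzymes of DNA methylation and its removal changed in both directions. Of 18 tested 2 rose and 3 fell, a share not far from the 20.8% of all genes, and the counts were more than 1.5 times lower without 5 of the 6 libraries, all but replicate 3 of 1.5 dpf. dnmt1, which copies methylation to newly made DNA, fell to 2078, 1973 and 2049 at 2 dpf, against 3052, 3544 and 4883 at 1.5 dpf (log2 change -0.88, limma adjusted p = 0.0035). The genes mutated elsewhere in the series, whose enzymes oxidise 5-methylcytosine, did not pass the test between the ages. tet2 had 1542, 1704 and 1893 at 2 dpf and 819, 920.4 and 1407 at 1.5 dpf (log2 change 0.74, limma adjusted p = 0.17). tet3 had 1166, 1335 and 1620.4 at 2 dpf and 1093, 1393 and 2169 at 1.5 dpf (log2 change -0.13, limma adjusted p = 0.77). The groups overlapped in tet3 but not in tet2. The third family member, tet1, had 286, 501 and 477 at 2 dpf and 261, 208 and 280.2 at 1.5 dpf (log2 change 0.72, limma adjusted p = 0.15).

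Genes for making ribosomes fell, while those of the ribosome's own proteins did not pass the test. Of 34 ribosome biogenesis genes 26 fell and none rose, beside 9.18% and 11.6% of all genes. Their median log2 change was -0.79. gnl3, a nucleolar GTP-binding protein of dividing cells, had 519, 574 and 579 at 2 dpf and 1425, 1109 and 1529 at 1.5 dpf (log2 change -1.27, limma adjusted p = 0.0015). rrs1, an assembly factor of the large subunit, had 247, 348 and 261 at 2 dpf and 963, 736 and 855 at 1.5 dpf (log2 change -1.58, limma adjusted p = 0.0016). With 1 library left out 14 to 23 fell, and the count was more than 1.5 times lower without replicate 2 or 3 of 2 dpf or replicate 1 of 1.5 dpf. The sums over the list were 49214 to 52202 at 2 dpf and 78795 to 92045 at 1.5 dpf. In tet3-/- libraries of 2 dpf the sums were 76682, 75045 and 79126, and replicate 3 alone reached the range of 1.5 dpf. In cell cycle sums no mutant library of 2 dpf reached the range of 1.5 dpf. Of 46 cytosolic ribosomal protein genes none passed in limma, edgeR or DESeq2, and 0 had an unadjusted p under 0.05 in limma.

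The counts of energy, lipid and secretory genes past the threshold stand beside 20.8% of all genes. Of 33 oxidative phosphorylation genes 2 rose, cox6b1 and ndufa4, by log2 changes of 1.02 and 1.06. Of 28 glycolysis genes 1 rose and none fell. None rose there without replicate 1 or 2 of 2 dpf or replicate 1 of 1.5 dpf, and without replicate 3 of 1.5 dpf none rose and 2 fell. Of 24 sterol and lipid genes 1 rose and 5 fell. The lipid counts were more than 1.5 times lower without 5 of the 6 libraries, all but replicate 3 of 1.5 dpf. insig1, which holds the sterol-sensing machinery in the endoplasmic reticulum, fell to 864, 803 and 767 at 2 dpf, against 2214, 2241 and 1664 at 1.5 dpf (log2 change -1.32, limma adjusted p = 0.00070). srebf1, a transcription factor for lipid synthesis, fell to 187, 273 and 254 at 2 dpf, against 528, 644 and 873 at 1.5 dpf (log2 change -1.50). Of 35 genes of the unfolded protein response and the secretory machinery 1 rose and 2 fell. Without replicate 3 of 1.5 dpf 1 rose and 4 fell. The riser was hspa5, the Hsp70 of the endoplasmic reticulum known as BiP, with 71556, 69909 and 66293 at 2 dpf and 21982, 25643 and 8706 at 1.5 dpf (log2 change 2.03, limma adjusted p = 0.0017). atf4b, a factor of the unfolded protein response, fell to 6353, 5883 and 6147 at 2 dpf, against 12796, 12797 and 10873 at 1.5 dpf (log2 change -0.98). The other 32 genes of the list did not pass.

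Of 33 lysosome and phagosome genes 3 rose and 1 fell, a smaller share than the 20.8% of all genes. sqstm1, the autophagy receptor p62, had 10423, 10589.9 and 8512 at 2 dpf and 1470.4, 1754 and 828 at 1.5 dpf (log2 change 2.93, limma adjusted p = 0.00063). The cathepsin K gene ctsk had 2074, 1834 and 2017 at 2 dpf and 566, 499.9 and 505 at 1.5 dpf (log2 change 1.91, limma adjusted p = 7.1e-05). Cathepsin K is best known from bone-resorbing cells, so ctsk need not be a neutrophil signal. ctsl.1 rose by a log2 change of 2.36. Without replicate 3 of 1.5 dpf 4 genes of the list fell.

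Markers of several other cell types differed between the ages, and no tested marker of any list was at 0 in all 3 libraries of either age. Red cell genes gave the clearest fall: of 23 erythroid markers 22 fell, beside 9.18% of all genes, and none rose. Their median log2 change was -4.74. hbae3, an embryonic alpha globin, had 3745, 3315 and 1558 at 2 dpf and 85125, 85435 and 81820.3 at 1.5 dpf (log2 change -4.97, SE 0.74, limma adjusted p = 0.00079). alas2, the first enzyme of heme synthesis in red cells, had 198, 299.7 and 112 at 2 dpf and 7082, 9034 and 8091 at 1.5 dpf (log2 change -5.41). slc4a1a, the anion exchanger of the red cell membrane, had 427, 758 and 341 at 2 dpf and 12557, 13750.3 and 13702 at 1.5 dpf (log2 change -4.79). The globin genes are near-identical copies, so their reads may be divided among them, which touches single globins but not the list's sum. That sum was 5812 to 9215 at 2 dpf, against 179386 to 195200 at 1.5 dpf, and 5271 to 32534 in the mutant libraries of 2 dpf. The part of red cell RNA in the falls of gata1a, klf1, gfi1b and lmo2 was not tested.

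Pigment cell markers also fell, 15 of 19 beside 9.18% of all genes, with none rising and a median log2 change of -2.57. sox10, a factor of neural crest cells, had 305, 270.4 and 318 at 2 dpf and 1494, 1314 and 1509 at 1.5 dpf (log2 change -2.27, limma adjusted p = 8.0e-05). gch2, needed for yellow pigment, had 39.6, 37.2 and 21.4 at 2 dpf and 246, 581 and 317 at 1.5 dpf (log2 change -3.45). The list's sums were 4096 to 4333 at 2 dpf and 13473 to 17167 at 1.5 dpf. They were 3777 to 9321 in tet2-/-, 10809 to 14006 in tet3-/- and 12368 to 18627 in tet2/3DM libraries of 2 dpf. Replicate 3 of tet3-/- (14006) thus lay within the range of wildtype libraries of 1.5 dpf, and replicates 1 and 2 lay below it. The tet2/3DM libraries (18627, 12368 and 18453) lay on both sides of that range.

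Matrix and mesenchyme markers did the opposite. Of 27 tested 21 rose and none fell, beside 11.6% and 9.18% of all genes, and the median log2 change was 2.17. col1a1a, a chain of type I collagen, had 232176, 223589 and 248874 at 2 dpf and 32013, 33379.8 and 32767 at 1.5 dpf (log2 change 2.84, SE 0.20, limma adjusted p = 2.69e-07). Its partner chain col1a2 had 21464, 22917 and 27073 at 2 dpf and 2482, 4737 and 3962 at 1.5 dpf (log2 change 2.72). lum and dcn, which encode small proteoglycans that bind collagen fibres, rose by 2.74 and 2.66 on the log2 scale. The list's sums were 342445 to 386542 at 2 dpf and 53119 to 65461 at 1.5 dpf. In mutant libraries of 2 dpf they were 146216 to 308953 in tet2-/-, 245653 to 255814 in tet3-/- and 114999 to 138694 in tet2/3DM, all between the wildtype ages.

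Markers of macrophages were mixed, with 5 of 20 rising and 1 falling, beside 11.6% and 9.18% of all genes. lgals3bpb, a secreted galectin-binding protein, had 4700.5, 4166 and 4399.5 at 2 dpf and 622, 409 and 551 at 1.5 dpf (log2 change 3.09, limma adjusted p = 0.00032). c1qc, a complement subunit made by tissue macrophages, had 459, 292 and 305 at 2 dpf and 115, 49.5 and 51.1 at 1.5 dpf (log2 change 2.36). mfap4, used as a macrophage marker in zebrafish, fell to 2188, 1741 and 1931 at 2 dpf, against 7087, 9038 and 4409 at 1.5 dpf (log2 change -1.75, limma adjusted p = 0.0022). The summed counts overlapped, with 73247, 66520 and 66726 at 2 dpf and 74692, 81531 and 47727 at 1.5 dpf.

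Of 29 endothelial markers 1 rose and 8 fell, beside 11.6% and 9.18% of all genes. sox18, a factor of early vessels, had 112, 139 and 119.9 at 2 dpf and 842, 432 and 573 at 1.5 dpf (log2 change -2.26, limma adjusted p = 0.00016). stab1, a scavenger receptor of veins and macrophages, was the one that rose, with 2055, 2081 and 2041 at 2 dpf and 727, 521 and 681 at 1.5 dpf (log2 change 1.69). Between 4 and 10 fell with 1 library left out, with counts more than 1.5 times lower without replicate 1 of either age. Endothelial sums were 13261 to 14186 at 2 dpf and 14156 to 19946 at 1.5 dpf. Of 25 epidermis markers 8 rose and 1 fell, or 5 to 12 rises with 1 library left out. krt5, a keratin of basal skin cells, had 4924, 4586 and 4548 at 2 dpf and 209, 1311 and 342 at 1.5 dpf (log2 change 3.36, limma adjusted p = 0.0047). postnb, a matrix protein gene, had 10846, 13102 and 14608 at 2 dpf and 3323, 3865 and 4219 at 1.5 dpf (log2 change 1.75). Epidermis sums were 56939.5 to 63036 at 2 dpf and 17563 to 44435 at 1.5 dpf.

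Of 28 neural markers 8 rose and 5 fell, beside 11.6% and 9.18% of all genes. elavl4, of differentiated neurons, had 765, 975 and 876 at 2 dpf and 103, 116 and 260.4 at 1.5 dpf (log2 change 2.56, limma adjusted p = 0.0048). The neural progenitor gene sox19a had 299.7, 270.4 and 271 at 2 dpf and 1345, 1164 and 3405 at 1.5 dpf (log2 change -2.64). sox2, of the same class, had 355, 293 and 345 at 2 dpf and 938, 803 and 1973 at 1.5 dpf (log2 change -1.79). In sox19a and sox2 replicate 3 of 1.5 dpf was highest. Summed neural counts were 15550, 17408 and 17312 at 2 dpf, against 12852, 11203 and 27727 at 1.5 dpf, so that replicate 3 alone of 1.5 dpf exceeded 2 dpf. With 1 library left out the neural counts were 3 to 8 rises and 2 to 5 falls, and they were more than 1.5 times lower without any library of 2 dpf or without replicate 1 of 1.5 dpf. Of 31 muscle markers 2 rose and none fell, ttn.2 and tnnt3b, by log2 changes of 2.11 and 2.82. The median log2 change of the list was 1.98, and in 19 of the 31 all libraries of 2 dpf lay above all of 1.5 dpf, beside 22.4% of all genes. Muscle sums did not overlap between the wildtype ages, with 25745 to 31029 at 2 dpf and 6723 to 15184 at 1.5 dpf. In mutant libraries of 2 dpf they were 8056 to 39142 in tet2-/-, 3470 to 16458 in tet3-/- and 2183 to 84396 in tet2/3DM. Mutant libraries of 2 dpf thus reached below and above both wildtype ages. Counts of the 3 short lists stand beside 20.8% of all genes. The list of lens, yolk and liver had 3 of 6 genes rising and 1 falling. That of thrombocytes and mast cells had 2 of 8 rising and 1 falling, and that of lymphocytes 1 of 8 in each direction. On the lymphocyte list 1 of these genes encodes a subunit of RNA polymerase I and is no lymphocyte marker. Its call was lost when any 1 of 4 wildtype libraries was left out.

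**Figure D3:**
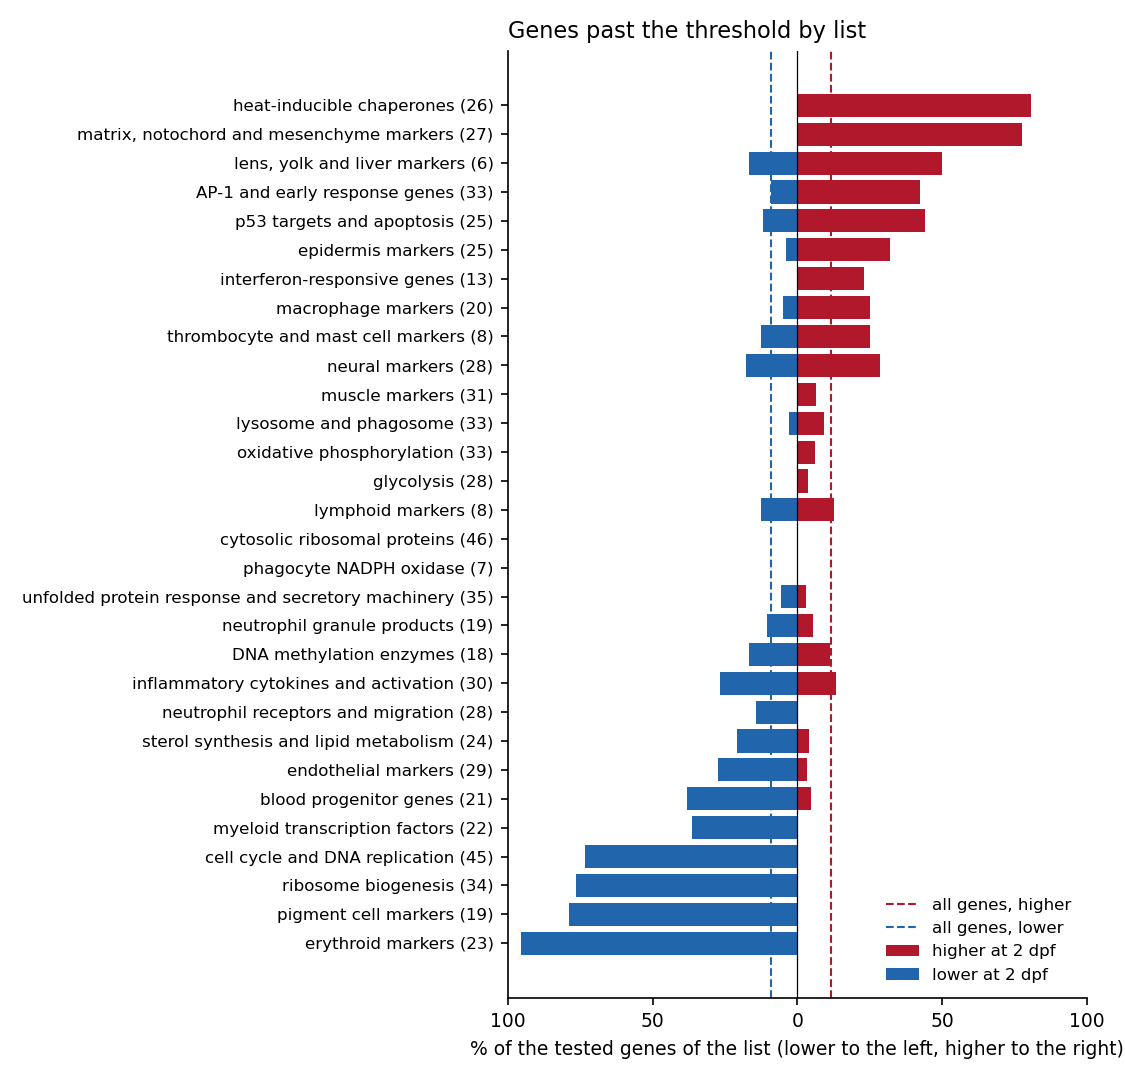
Members of each of 30 gene lists that rose or fell at 2 dpf (horizontal bars, percent of tested members, rises to the right of 0 and falls to the left), with the number tested beside each list and dashed lines at the shares of all genes (11.6% and 9.18%). Erythroid markers (22 of 23 lower), matrix markers (21 of 27 higher) and heat-inducible chaperones (21 of 26 higher) reach furthest; cytosolic ribosomal proteins show none.

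Because the heat shock share of the wildtype libraries of 2 dpf, like that of tet2-/-, lay above that of tet3-/- and tet2/3DM libraries of the same age, every gene was also checked for separation of all 12 libraries of 2 dpf, mutants included, from the 3 of 1.5 dpf. This count was chosen after the values were seen, and it is a description with no test. In 704 of the 15933 genes (4.42%) all 12 values lay above the 3 of 1.5 dpf, and in 756 (4.74%) all lay below. Of the genes that rose between the wildtype ages 595 were among the 704, and of those that fell 544 were among the 756. The calls and these counts share all 6 wildtype libraries, so such an overlap was largely fixed in advance and is no separate support. Erythroid markers were separated in 20 of 23 genes and cell cycle genes in 30 of 45, all lower at 2 dpf. Matrix markers were separated in 8 of 27, all higher, including col1a1a, sparc and lum. Neural markers were separated in 8 of 28, also higher, including elavl4 and dlx2a. Heat-inducible chaperones were separated in 14 of 26, of which 13 were higher. Ribosome biogenesis genes were separated in 8 of 34 and pigment markers in 3 of 19, lower in each case. Among neutrophil genes mmp13a and csf3r were lower in all 12.

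**Figure D4:**
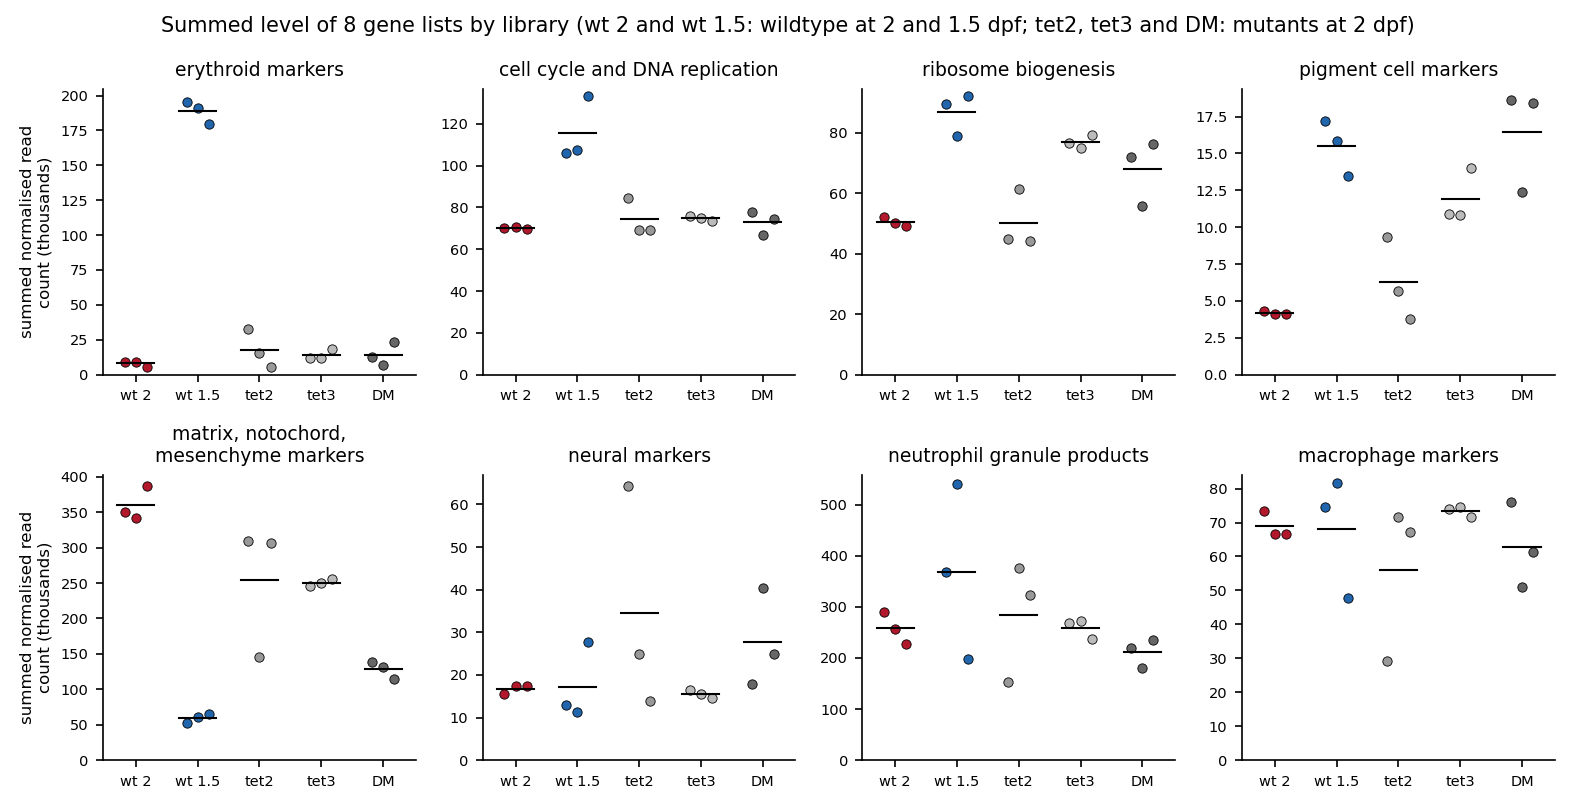
Normalised counts summed over 8 gene lists (in units of 1000, linear vertical axes from 0) in each of the 15 libraries, with a point per library and a line at the mean of each group. Erythroid sums are 5812 to 9215 in wildtype libraries of 2 dpf and 179386 to 195200 in those of 1.5 dpf, whereas granule and macrophage sums overlap between the ages.

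Single genes showed the same kinds of pattern over the groups. hbae3, elavl4 and plk1 separated 1.5 dpf from every library of 2 dpf whatever the genotype. sox10 averaged 2139.6 in tet3-/- and 3009.6 in tet2/3DM libraries of 2 dpf, above the wildtype libraries of 1.5 dpf, and 459 in tet2-/- libraries. gnl3 averaged 586 in tet2-/-, 1083 in tet3-/- and 758 in tet2/3DM libraries. These mutant values share no library with the 1.5 dpf group, and their own comparisons with wildtype are not given here.

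**Figure D5:**
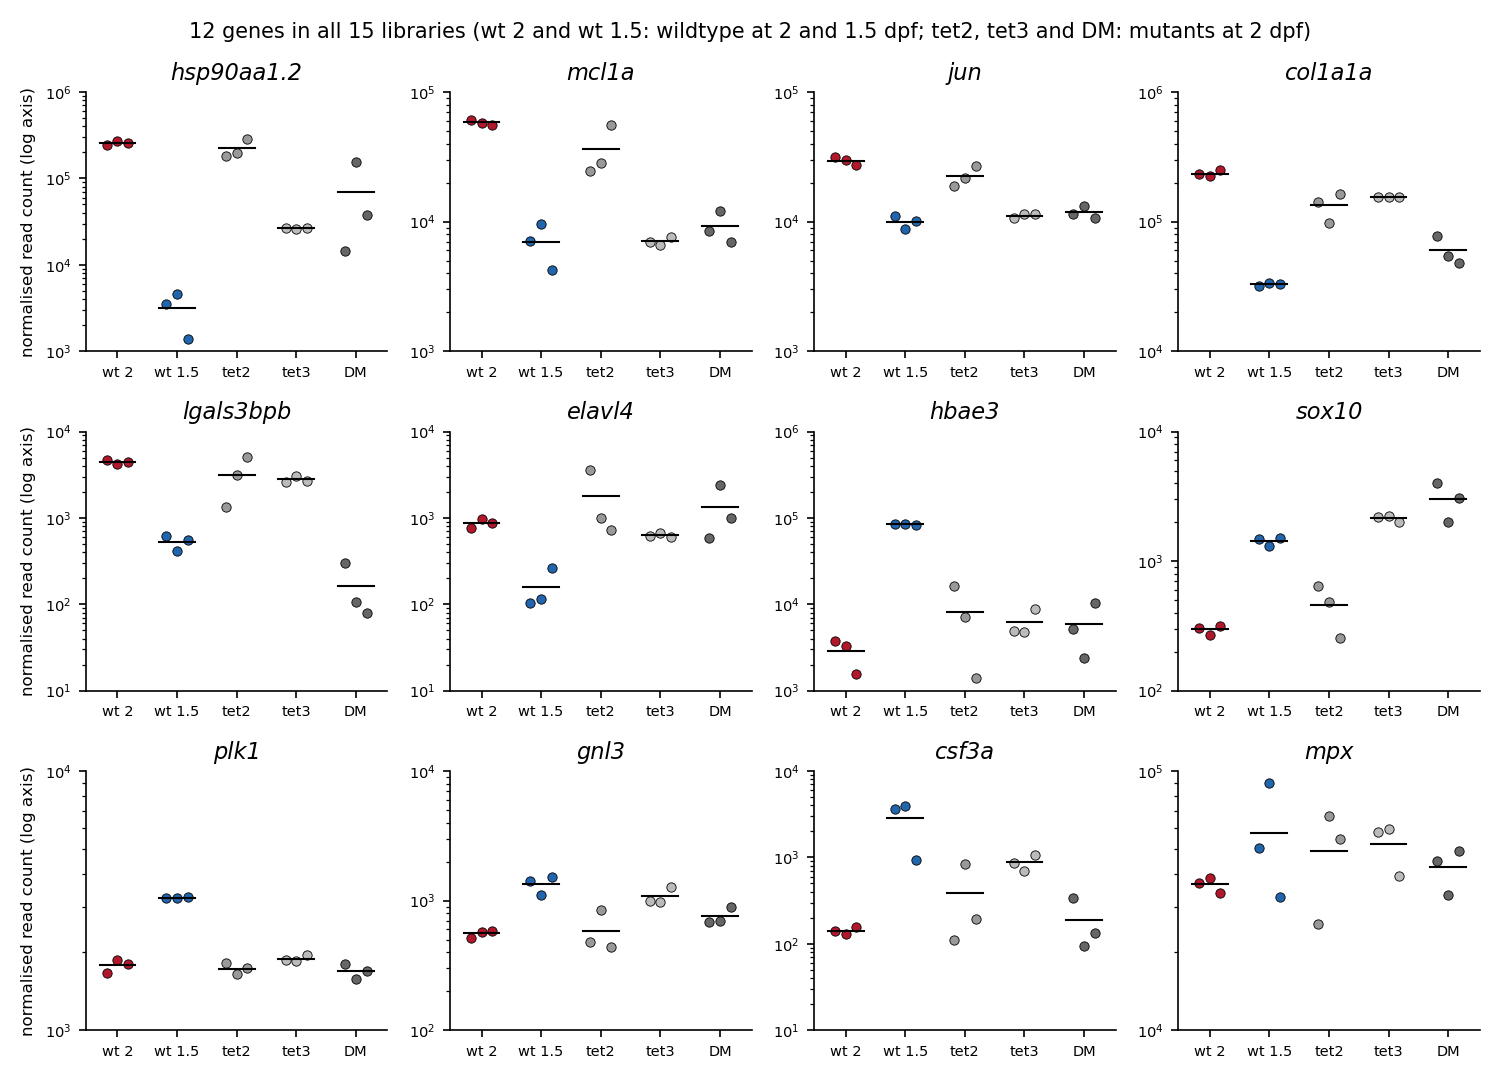
Normalised counts (log10 vertical axis) of 12 genes in each of the 15 libraries, grouped by genotype and age, with a point per library and a line at each mean. The wildtype ages do not overlap in the genes shown except mpx, whose 3 values at 1.5 dpf (50671, 89852 and 32686) span those at 2 dpf.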

How the data were processed

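RNA of sorted neutrophils was read as RNA-seq libraries made, per the labels' protocols, with a TruSeq version 2 kit. Strand is not kept by it, so reads of overlapping or antisense genes cannot be told apart. The submitters' processing notes name TopHat, Cufflinks and DESeq2. The genome build, annotation and counter were not given in the sources used here. Deposited values are a signal: reads per gene over a size factor that the authors set for each library. Of these values 100% came out as whole reads within a tolerance of 0.01, which gave each library's depth.

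Of 15937 genes, 15933 reached 10 in 3 or more of the 15 libraries and were kept; 4 were removed. limma 3.58.1 in R 4.3.3 fitted log2(value + 1) with a mean per group over 5 groups of 3 libraries, a trend and robust moderation; the spread is thus pooled over all 5 groups. P-values are two-sided and Benjamini-Hochberg adjusted over all genes tested, with a threshold of 0.05. The fit was tested on simulated data with planted changes. Alternatives included edgeR 4.0.16 and DESeq2 1.42.0 on the recovered reads. Tables and figures used Python 3.11.15, numpy 2.4.6, pandas 2.3.3, scipy 1.17.1 and matplotlib 3.10.9. Levels are not compared between genes, since gene lengths were not used.

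The 30 gene lists had 871 entries, of which 745 matched a gene name and 744 were tested (723 distinct genes, 271 past the threshold). Of 15 symbols deposited as dates 14 were restored from gene identifiers, and 183 rows share a symbol with another. The members and lists were chosen with earlier results of these data known. The report names genes from 191 picked by rule; those named in the closing observations alone were chosen after their values were seen. The rule took mpx, lyz, csf3r, the tet genes and hsp70l; the 15 largest rises and falls with no overlap between the ages and a mean of 50 or more at the age where it was higher; up to 5 genes of smallest p per list; and the 10 highest genes at each age. Replicate numbers were not used to pair libraries.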

Additional observations from a re-analysis of the deposited data

How the results depend on the processing

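The count of genes past the threshold, 3317, stayed within 1.5 times under 2 other pseudocounts, 2 other filters, TMM scaling (3317), quantile normalization (2804), totals without heat shock genes (3140), the 6 wildtype libraries alone (4181), edgeR (3174) and DESeq2 (3999). It moved beyond that with library weights (7497, of which 4054 higher and 3443 lower; gene list members 451 in place of 271) and with hsp70l as a covariate (41, of which 27 higher and 14 lower; gene list members 6). Leaving out 1 library gave 1845 to 3316 genes, 1063 to 1975 higher and 782 to 1341 lower, and 189 to 263 gene list members. The number of non-overlapping genes was 7691 to 9521 in place of 6901, since fewer libraries had to be separated. The difference in the share of normalised counts taken by heat-inducible chaperones was 8.08 to 8.57 percentage points without 1 library, and 3.79 when it was taken over hsp70l and hsp70.3 only. With the covariate 3 named genes changed sign, pglyrp6 to -0.17, socs3b to 0.11 and rrs1 to 0.0098. Of the 79 named genes past the threshold, csf3r alone lost its call when 1 library was left out. Genes that the rule picked but that are not among the 79 lost theirs too, such as cmn, itgb7 and tal1. With hsp70l as a covariate 5 of the 79 kept their call. The causes were not tested, apart from the wider errors of the covariate fit. Whether the replicate numbers pair the libraries was not settled. Same-numbered libraries of the 2 ages had correlations of their deviations of 0.122, -0.048 and 0.149 in replicates 1, 2 and 3. Replicates 1 and 3 of 2 dpf each correlated best with their own number. Replicate 2 of 2 dpf correlated best with replicate 3 of 1.5 dpf (0.083). A replicate block gave 3010 genes over 15 libraries and 4744 over the 6 wildtype ones. Depth limits the genes named with fewer than 10 reads per library at 1 age, such as matn3a, pglyrp6, chs1 and tbx6l. For matn3a, pglyrp6 and chs1 no fold or only a lower bound is given. The log2 change of tbx6l rests on few reads at 2 dpf. Those of hpdb and isg15 rest on few reads at 1.5 dpf, so the size of these changes is uncertain.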

Other observations

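Counts over gene families, which were chosen after their values were seen and carry no test, give a wider view and partly hold genes of the lists above. Of 48 collagen genes tested, 10 of them on the matrix list, 29 rose at 2 dpf and none fell, with a median log2 change of 1.85. The rises included cartilage chains, with col11a2 averaging 2556 at 2 dpf and 72.9 at 1.5 dpf and col9a1b 2493 at 2 dpf and 80.0 at 1.5 dpf. Of 45 hox genes, which pattern the body axis, 12 rose and 1 fell. Several of the risers belong to the posterior end of their cluster: hoxb13a averaged 1008 at 2 dpf and 242 at 1.5 dpf, and hoxa13b 413 at 2 dpf and 106 at 1.5 dpf. Of 31 integrin genes 12 rose and 2 fell. itga10, a collagen receptor of cartilage, averaged 196 at 2 dpf and 5.0 at 1.5 dpf, and itga8, which binds matrix proteins, 1083 at 2 dpf and 268 at 1.5 dpf. The counts of all genes tested were 1855 higher and 1462 lower of 15933.

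All 10 hemoglobin genes and all 10 genes of heme synthesis tested fell, and many of these are on the erythroid list. Counts in this paragraph stand beside 11.6% rising and 9.18% falling among all genes. Of 39 genes with proteasome names 11 fell and 1 rose, psmd11b averaging 819 at 2 dpf and 1590.2 at 1.5 dpf. Of 20 nucleoporin genes, which form the nuclear pore, 10 fell and none rose, and nup155 averaged 1369 at 2 dpf and 2639 at 1.5 dpf. Of 13 genes of the mitochondrial genome 3 fell and none rose, a share near the 20.8% of all genes past the threshold. mt-nd1 averaged 9148 at 2 dpf and 22319 at 1.5 dpf. Of 73 nuclear genes for mitochondrial ribosomal proteins 1 fell and none rose.

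Of the 41 genes that passed with hsp70l as a covariate, 33 had passed without it. That fit takes its slope on hsp70l from the spread within groups. The log2 value of hsp70l ran from 12.43 to 17.26 in tet2/3DM libraries but from 18.49 to 18.70 in wildtype libraries of 2 dpf. The changes below therefore rest largely on mutant libraries. Passing with wider errors also favours large values, so they do not show that a difference between the ages grows. Of the lists, 1 of 27 matrix markers, 2 of 20 macrophage markers and 2 of 23 erythroid markers passed with it, in place of 21, 6 and 22 without it. The log2 change of col1a1a was 3.23 with the covariate and 2.84 without it, and that of and2, an actinodin of the fin fold, 5.0 with it and 4.16 without it. ptx3a, a pentraxin, had 5.07 with it and 4.45 without it. Of the macrophage markers lgals3bpb had 4.61 with the covariate and 3.09 without it, and c1qc 4.54 with it and 2.36 without it. The 2 erythroid markers that still passed were the transferrin receptor gene tfr1a, with -5.05 with the covariate and -4.13 without it, and the membrane skeleton gene epb41b, with -6.84 with it and -4.15 without it. In fkbp5, a co-chaperone of steroid receptors that responds to glucocorticoids, the change was 2.91 with the covariate and 3.92 without it.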
